A study of Homo sapiens with 6 samples.

Results

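Expression of 49 DNA replication and E2F genes was followed after knockdown of the long noncoding RNA DLEU1 in oral squamous cell carcinoma (OSCC) cells. The genes were taken by name, out of 34423 gene names on the array, and every probe that carries one of the names was read. All 49 were found, on 60 probes, and 59 of these probes passed the filter on dim signals, so that each gene kept at least 1 probe. HSC-3, KON, and Ca9-22 are established OSCC cell lines. Each was transfected with a small interfering RNA that targets DLEU1 (siDLEU1-2) or with a control siRNA (siCtrl), and total RNA was collected 72 h later. There was 1 array per line and siRNA, 6 in all. The 3 lines are therefore the only replicates of each siRNA, and no error can be given for a difference within 1 line. Only 1 siRNA against DLEU1 was put on arrays, so loss of DLEU1 and any other action of this siRNA cannot be told apart.

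A level is given here as the log2 of the signal relative to the 75th percentile of its array, and a difference as the level after siDLEU1-2 minus the level after siCtrl in the same line. A pair of levels is given as going from the siCtrl value to the siDLEU1-2 value. For a gene with several probes, the values are those of the kept probe with the highest mean level, the chosen probe, unless another is named. The chosen probes of all 49 genes were well above background on all 6 arrays. DLEU1 itself was lower by 4.10, 3.63, and 3.44 (HSC-3, KON, Ca9-22, the order used throughout), with a mean difference of -3.72 ± 0.34 (SD, n = 3 lines). On the siCtrl arrays, all 6 squamous epithelial markers examined (KRT5, KRT14, KRT17, KRT6A, TP63, and SFN) were well above background in every line. Of 5 markers of blood, vessel, stromal, and liver cells, 0 were so in every line, and CD3E and PECAM1 were so on some siCtrl array. The 75th percentile of the signal was 200 to 257 on the 6 arrays, all on 1 slide, and 43.0% to 45.7% of probes were well above background.

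Before S phase, the origin recognition complex, CDC6, and CDT1 load rings of MCM2 to MCM7 onto DNA. Kinases, CDC45, and the GINS complex then turn these rings into the active helicase, and the polymerases, the PCNA clamp, and the clamp loader RFC copy the opened strands. Many of these genes are transcribed at the G1/S border under E2F factors. E2F1, E2F2, and E2F3 act mainly as activators and are held by the retinoblastoma protein, while E2F7 and E2F8 are repressors of E2F target genes. In OSCC, as in other carcinomas, replication genes are commonly used as signs of proliferation.

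E2F site letters were more frequent in the promoters of these genes than in all promoters. Many of these genes are known E2F targets, so this describes the set and is not a result of the knockdown. The RefSeq promoter table (GRCh38.p14), with windows from 250 bases before to 50 bases after the start, holds 52 windows for 42 of the 49 genes. The letters TTTGGCGC, TTTCCCGC, TTTGCCGC, and TTTCGCGC, forms of the E2F site, were searched on both strands. At least 1 match was found in 26 of the 52 windows (50%), compared with 3.31% of all 35116 windows. The letters CCAAT, searched in the same way, were in 32 of the 52 windows (61.5%), compared with 34.6% of all windows. Windows of the same gene can overlap. The 250 bases before the start are shown for the 3 genes that limma called in the comparison below and for MCM6, a subunit of the same ring as MCM7 whose difference, not called, had the opposite sign. Capitals mark the E2F letters.

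MCM6, chr2:135876444-135876693, minus strand: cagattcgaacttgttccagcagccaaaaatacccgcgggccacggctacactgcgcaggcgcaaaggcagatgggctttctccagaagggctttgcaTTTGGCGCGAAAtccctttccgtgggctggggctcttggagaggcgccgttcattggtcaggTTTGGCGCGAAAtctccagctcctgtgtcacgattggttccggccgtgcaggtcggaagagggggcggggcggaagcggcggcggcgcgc

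MCM7, chr7:100101398-100101647, minus strand: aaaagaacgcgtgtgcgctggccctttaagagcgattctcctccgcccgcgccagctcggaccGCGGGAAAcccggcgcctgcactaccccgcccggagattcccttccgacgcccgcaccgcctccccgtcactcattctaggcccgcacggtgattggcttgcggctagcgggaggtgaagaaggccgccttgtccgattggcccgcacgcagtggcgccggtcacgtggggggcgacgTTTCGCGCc

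E2F3, chr6:20401629-20401878, plus strand: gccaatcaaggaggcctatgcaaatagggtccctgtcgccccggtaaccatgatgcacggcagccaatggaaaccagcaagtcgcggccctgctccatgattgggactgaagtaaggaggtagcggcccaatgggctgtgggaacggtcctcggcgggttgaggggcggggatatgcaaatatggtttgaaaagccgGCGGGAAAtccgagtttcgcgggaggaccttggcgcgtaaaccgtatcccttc

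E2F7, chr12:77065570-77065819, minus strand: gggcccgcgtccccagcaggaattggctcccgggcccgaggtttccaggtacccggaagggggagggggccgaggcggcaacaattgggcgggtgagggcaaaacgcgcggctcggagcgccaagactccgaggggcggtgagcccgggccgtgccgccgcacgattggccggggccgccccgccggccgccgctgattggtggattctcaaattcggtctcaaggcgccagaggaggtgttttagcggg

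In MCM6, the capitals hold 4 overlapping matches, since the same stretch reads as TTTGGCGC on one strand and as TTTCGCGC on the opposite strand. MCM7 has 2 matches and E2F3 has 1 in the windows shown. The other windows of MCM7 and E2F3 hold none, and neither does that of E2F7, which says only that these letters are not there.

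Changes shared by the 3 lines were few. E2F7 and MCM7 fell and E2F3 rose by limma with the cell line as a block, at an adjusted p under 0.05. Thus 2 of the 49 genes (4.08%) were called lower, compared with 4.68% of the 14671 genes with a kept probe. Likewise, 1 of the 49 (2.04%) was called higher, compared with 4.11% of all genes. A difference over 2-fold in all 3 lines was found downward for the same 2 genes, MCM7 and E2F7 (4.08%; 2.25% of all genes), and upward for 0 of the 49 (2.17% of all genes). The shares of members called by limma were thus near or below those of all genes. With no replicate block, with the methods' t-test after adjustment, or with no filter on dim probes, 0 genes were called on the whole array. Because RNA came from whole cultures, a different share of cells in S phase and a different level per cell cannot be told apart. These calls rest on all 3 lines. Without HSC-3 or without KON, limma called 0 genes on the whole array. Without Ca9-22, it called 97 of the 14671 genes higher and 93 lower, and 0 of the 49. Few genes of any kind passed with 2 lines, so the lost calls do not set these members apart. In these fits, 12, 8, and 6 members (24.5%, 16.3%, and 12.2%) had an unadjusted p under 0.05, compared with 23.0%, 23.7%, and 22.4% of all genes.

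**Figure D1:**
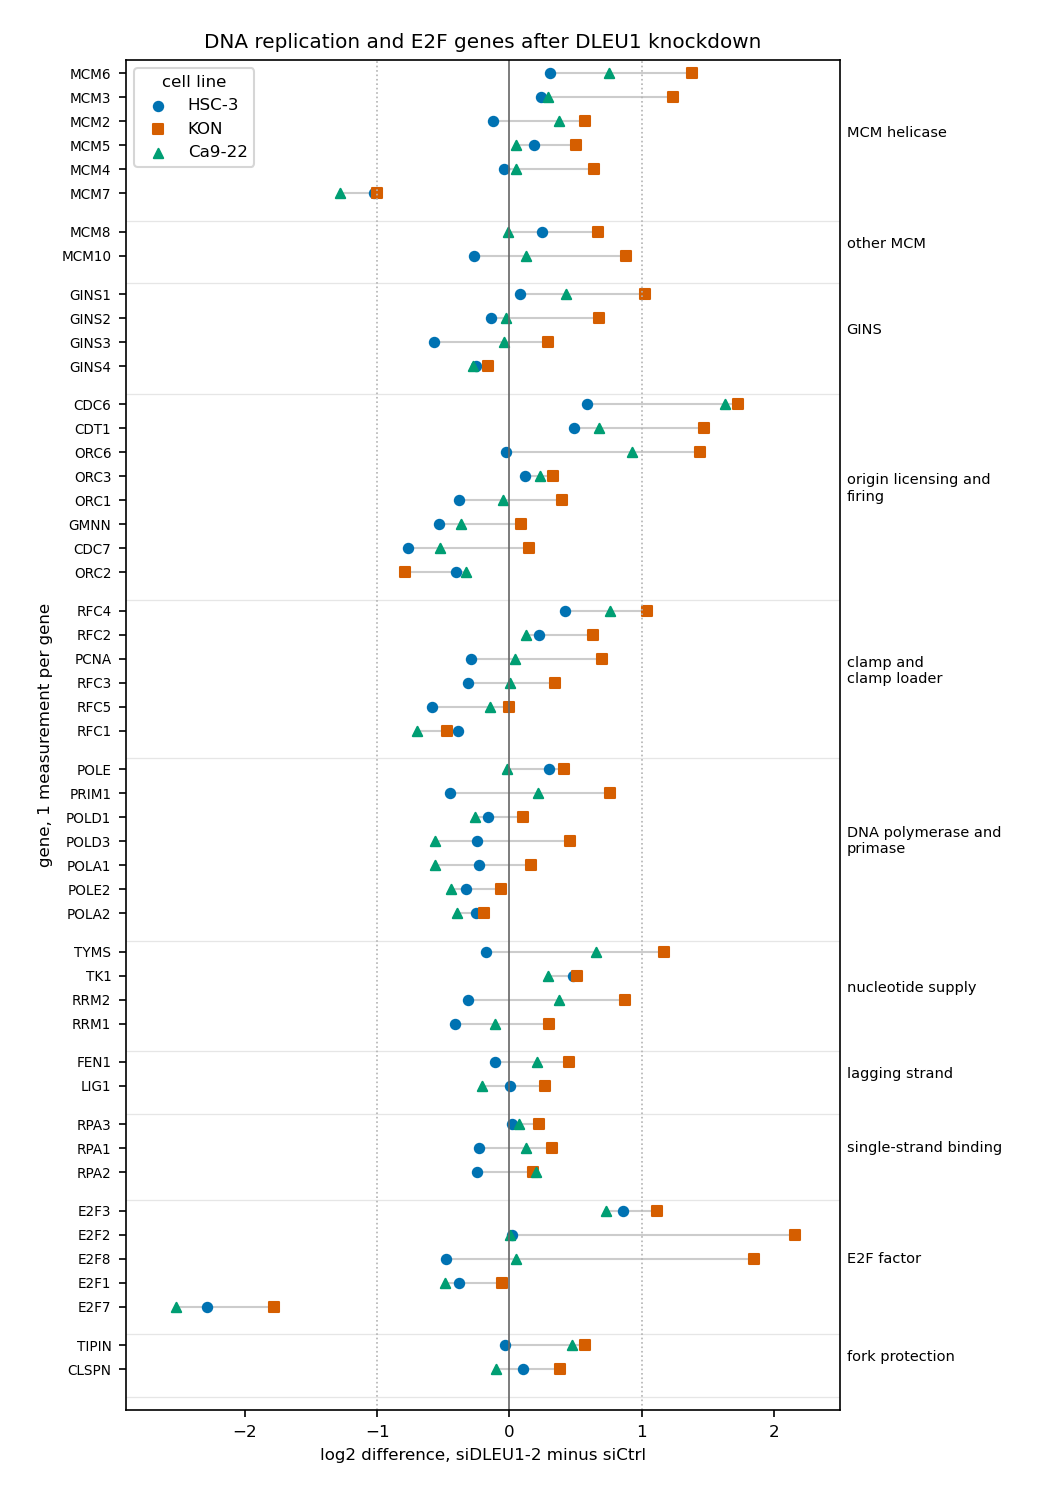
Log2 difference between siDLEU1-2 and siCtrl (x axis) for each of the 49 genes (y axis, grouped by role), with 1 point per cell line and dotted lines at 2-fold. E2F7 and MCM7 lie at or beyond the 2-fold line on the low side in all 3 lines, and the KON point is the rightmost for 46 of the 49 genes.

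E2F7, a repressor of E2F target genes, showed the largest mean difference among the 49 genes. Its chosen probe (hg19, chr12:77415520-77415579, minus strand) went from 2.23 to -0.06 in HSC-3, from 3.91 to 2.13 in KON, and from 3.29 to 0.76 in Ca9-22. The 3 siDLEU1-2 arrays lay below all siCtrl arrays. This was so for 2 of the 49 genes, E2F7 and ORC2 (4.08%; 5.35% of all genes). E2F7 fell by 2.29, 1.78, and 2.53, a mean difference of -2.20 ± 0.38 (SD, n = 3 lines) or 4.59-fold, with an adjusted p of 0.0247 by limma. The other E2F7 probe (chr12:77417576-77417635) was too dim to count as well above background after siDLEU1-2 in all 3 lines, so it gives only a bound. Taking the detection limit of each array in place of dimmer values, its fold decrease was at least 1.32 (HSC-3), 4.55 (KON), and 2.11 (Ca9-22), and at least 2.33 from the means over these lines. This probe passed the filter through its siCtrl arrays alone, so no test is given for it.

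E2F8, another repressor of the family, had no shared direction over the lines. Its levels went from -0.66 to -1.14 in HSC-3, from -0.19 to 1.66 in KON, and from -0.21 to -0.17 in Ca9-22. The level was higher in KON, lower in HSC-3, and nearly the same in Ca9-22. The mean difference of 0.47 ± 1.22 (SD, n = 3 lines) did not pass the test (adjusted p = 0.562, limma).

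Among the activators, E2F3 rose. Its chosen probe (chr6:20493845-20493904, plus strand) went from 1.72 to 2.58 in HSC-3, from 2.67 to 3.78 in KON, and from 1.96 to 2.69 in Ca9-22. The level was higher after siDLEU1-2 in each line, although the HSC-3 siDLEU1-2 array lay below the KON siCtrl array. The differences of 0.86, 1.11, and 0.73 had a mean of 0.90 ± 0.20 (SD, n = 3 lines), or 1.87-fold, and an adjusted p of 0.0393 by limma. The other E2F3 probe (chr6:20490602-20490661) was higher by 0.93, 0.90, and 0.17 and did not pass (adjusted p = 0.119, limma). With the mean of both probes in place of the chosen one, E2F3 was not called either, with a difference of 0.78 and an adjusted p of 0.0621 by limma.

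E2F2 was set apart by KON. It went from 1.12 to 1.14 in HSC-3, from 1.22 to 3.37 in KON, and from 2.86 to 2.87 in Ca9-22. The difference was 4.46-fold in KON and at most 1.02-fold in the other lines, so the mean of 0.73 ± 1.24 (SD, n = 3 lines) did not pass (adjusted p = 0.381, limma). E2F1, the best known activator, went from 1.60 to 1.22 in HSC-3, from 3.07 to 3.01 in KON, and from 2.64 to 2.15 in Ca9-22. It was slightly lower in each line, with a mean difference of -0.31 ± 0.22 (SD, n = 3 lines) that did not pass (adjusted p = 0.268, limma). The 5 E2F genes thus had differences in KON from -1.78 to 2.16.

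**Figure D2:**
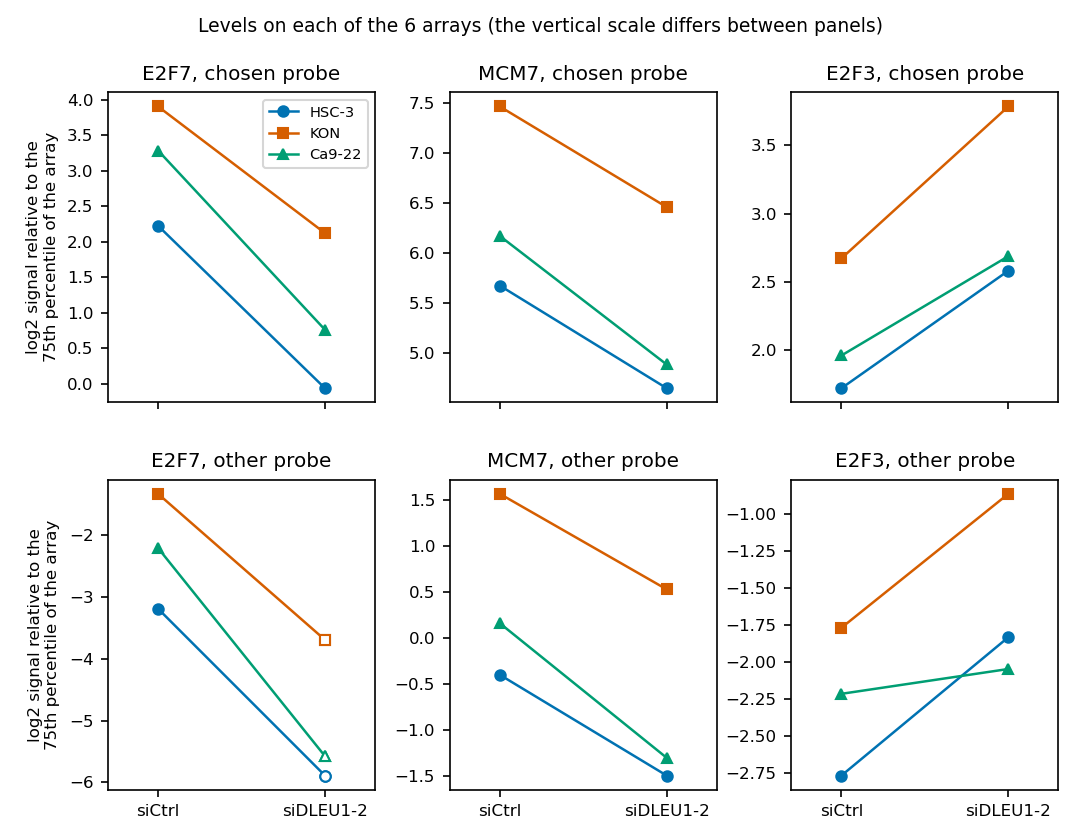
Level on each array (y axis, log2 signal relative to the array's 75th percentile) after siCtrl and siDLEU1-2 (x axis) for both probes of E2F7, MCM7, and E2F3, with 1 line per cell line; open symbols are not well above background. The chosen E2F7 probe and both MCM7 probes were lower after siDLEU1-2 in every cell line, the other E2F7 probe was not well above background after siDLEU1-2, and the other E2F3 probe differed little in Ca9-22, by 0.17.

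The MCM helicase is a ring of 6 different subunits, and MCM7 was the only one with a mean difference below 0. In HSC-3, MCM2 and MCM4 were also lower, by 0.12 and 0.04. The chosen MCM7 probe (chr7:99690520-99690579, minus strand) went from 5.67 to 4.65 in HSC-3, from 7.46 to 6.46 in KON, and from 6.17 to 4.89 in Ca9-22. Each line was lower after siDLEU1-2, while the levels of the 2 groups overlapped because KON stood higher throughout. MCM7 fell by 1.02, 1.003, and 1.28, a mean of -1.10 ± 0.16 (SD, n = 3 lines) or 2.15-fold, with an adjusted p of 0.0297 by limma. The other MCM7 probe (chr7:99697277-99697336), designed to a different transcript, fell by 1.10, 1.04, and 1.46, with an adjusted p of 0.0298 by limma. In KON, the chosen probe lay just at the 2-fold limit (2.005-fold). With the authors' series table or with normexp background correction, E2F7 alone remained over 2-fold in all lines.

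MCM6 had the largest difference of the other subunits. It went from 3.25 to 3.56 in HSC-3, from 3.79 to 5.17 in KON, and from 3.52 to 4.27 in Ca9-22. The mean difference was 0.81 ± 0.54 (SD, n = 3 lines) and did not pass (adjusted p = 0.108, limma). MCM3 went from 4.68 to 4.92 in HSC-3, from 4.92 to 6.16 in KON, and from 4.70 to 4.99 in Ca9-22, with a mean difference of 0.59 ± 0.56. Both were higher in all 3 lines and most so in KON.

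MCM2, MCM4, and MCM5 differed less. MCM2 went from 3.45 to 3.33 in HSC-3, from 4.71 to 5.28 in KON, and from 4.60 to 4.98 in Ca9-22. MCM4 went from 2.71 to 2.66 in HSC-3, from 4.32 to 4.95 in KON, and from 3.15 to 3.20 in Ca9-22. MCM5 went from 2.41 to 2.59 in HSC-3, from 4.41 to 4.91 in KON, and from 3.04 to 3.09 in Ca9-22. Their mean differences were 0.27 ± 0.36, 0.21 ± 0.37, and 0.25 ± 0.23 (SD, n = 3 lines), and none passed limma (adjusted p = 0.392, 0.508, and 0.360). The 5 subunits other than MCM7 had mean differences from 0.21 to 0.81, beside -1.10 for MCM7. A test of MCM7 against the other subunits was not run.

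The related MCM8, which acts in recombination repair, and MCM10, which helps to activate the helicase, had mean differences of 0.30 and 0.25, with 0.67 and 0.88 in KON. The 4 GINS genes, whose products form a complex bound to the active helicase, had mean differences from -0.23 (GINS4) to 0.51 (GINS1). GINS4 was lower in each line, by 0.25, 0.16, and 0.28, and GINS2 and GINS3 had means of 0.17 and -0.11. None of these 6 genes passed limma.

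Among the genes for origin licensing and firing, CDC6 and CDT1, which load the MCM ring, had the highest mean differences under the main processing. CDC6 went from -2.83 to -2.25 in HSC-3, from -2.56 to -0.83 in KON, and from -3.19 to -1.55 in Ca9-22. These siCtrl levels were low, beside detection limits of -3.58, -3.84, and -3.44 on the siCtrl arrays. The 3 siDLEU1-2 arrays of CDC6 lay above all siCtrl arrays, which held for 1 of the 49 genes (2.04%; 5.89% of all genes). The differences of 0.59, 1.73, and 1.63 had a mean of 1.32 ± 0.63 (SD, n = 3 lines), or 2.49-fold, and narrowly missed the threshold (adjusted p = 0.0559, limma). With normexp background correction, the CDC6 mean was 0.65 on the log2 scale (adjusted p = 0.0644, limma). It was then below the means of CDT1 (0.85) and ORC6 (0.72), so its rank and size depend on the background correction. CDC6 was called with only probes well above background on all 6 arrays (adjusted p = 0.0393, limma) and with dim values raised to the detection limit (adjusted p = 0.0481, limma). CDC6 and E2F3 were the 2 members (4.08%) over 1.5-fold higher in all 3 lines, compared with 5.45% of all genes. CDT1 differed by 0.49, 1.47, and 0.68, with a mean of 0.88 ± 0.52 and an adjusted p of 0.0889 by limma. Geminin (GMNN), the inhibitor of CDT1, had a mean difference of -0.27 ± 0.32.

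The origin recognition genes did not move together. ORC6 differed by -0.03, 1.44, and 0.93, and ORC2 by -0.40, -0.79, and -0.33. ORC1 and ORC3 had mean differences of -0.01 and 0.22. CDC7, a kinase that fires origins, had a mean difference of -0.38 ± 0.47 and was higher in KON alone, by 0.15. None of these genes passed limma.

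PCNA, the sliding clamp of the polymerases, was measured by 3 probes. The chosen one went from 4.95 to 4.66 in HSC-3, from 5.94 to 6.64 in KON, and from 4.51 to 4.55 in Ca9-22. It was lower in HSC-3 by 0.29, higher in KON by 0.70, and nearly level in Ca9-22, with a mean difference of 0.15 ± 0.50 (SD, n = 3 lines; adjusted p = 0.708, limma). The other probes gave mean differences of 0.17 and 0.20, and within each line the 3 probes lay within 0.14 of each other.

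Of the clamp loader genes, RFC4 had the highest mean difference, 0.74 ± 0.31, with 0.42, 1.04, and 0.76 in the 3 lines (adjusted p = 0.0714, limma). With normexp background correction, RFC4 was called higher (adjusted p = 0.0449, limma). RFC1, the large subunit, had the lowest, -0.52 ± 0.16, and was lower in each line (adjusted p = 0.0941, limma). RFC2 and RFC5 had means of 0.33 and -0.25. The 2 RFC3 probes differed in direction in HSC-3. The chosen one went from 0.27 to -0.04 in HSC-3, from 1.97 to 2.31 in KON, and from 1.13 to 1.13 in Ca9-22. The other went from -0.55 to -0.50 in HSC-3, from 0.999 to 2.17 in KON, and from -0.05 to 1.05 in Ca9-22. Their mean differences were 0.01 ± 0.33 and 0.77 ± 0.63, so the value for RFC3 depends on the probe.

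The DNA polymerase and primase genes had a narrower range of mean differences than the MCM, licensing, and clamp groups. Their mean differences ran from -0.28 (POLA2) to 0.23 (POLE), and none passed limma. POLA2 and POLE2, subunits of the polymerases alpha and epsilon, were lower in all 3 lines, by 0.25, 0.19, and 0.40 and by 0.33, 0.06, and 0.44. PRIM1, the primase subunit that starts new strands, was lower by 0.45 in HSC-3 and higher by 0.76 in KON. POLA1 and POLD1, the catalytic subunits of the polymerases alpha and delta, had means of -0.21 and -0.11, and POLD3, an accessory subunit of polymerase delta, had -0.12. The second POLE probe was dim and was left out.

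The genes for nucleotide supply had a median difference of 0.69 in KON, beside 0.16 for the polymerases and primase, and the values of the groups overlapped. TYMS, which makes thymidylate, differed by -0.18, 1.17, and 0.65, and RRM2, the regulated subunit of ribonucleotide reductase, by -0.32, 0.87, and 0.37. RRM1, the large subunit of that enzyme, had a mean difference of -0.07, with 0.30 in KON. TK1, which salvages thymidine, was the most even, with 0.48, 0.51, and 0.29 and a mean of 0.43 ± 0.12 (adjusted p = 0.125, limma). The lagging strand genes FEN1, a flap nuclease, and LIG1, a DNA ligase, had means of 0.18 and 0.02.

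The RPA genes encode the proteins that coat single-stranded DNA. RPA2 and RPA3 had mean differences of 0.05 and 0.10. The chosen RPA1 probe went from 5.06 to 4.83 in HSC-3, from 5.26 to 5.58 in KON, and from 4.57 to 4.70 in Ca9-22. The other RPA1 probe went from -0.06 to -0.46 in HSC-3, from -0.93 to -1.33 in KON, and from -3.18 to -0.94 in Ca9-22, where the siCtrl spot was not well above background. The chosen probe had a mean difference of 0.07 ± 0.28 and did not pass limma. The probes were opposite in direction in KON, and no mean is given for the other one, which was measured above background on 2 of its 3 siCtrl arrays. The fork protection genes TIPIN and CLSPN, which stabilize stalled forks and carry the checkpoint signal, had means of 0.34 and 0.13. The 9 genes with several kept probes gave 27 distances between the highest and lowest probe, 1 per gene and line, with a median of 0.175. The distances ran from 0.0043 (RPA2 in KON) to 2.12 (RPA1 in Ca9-22, with the dim spot), and that of RFC3 in Ca9-22 was 1.10.

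The 3 lines differed in how the set as a whole stood. The median difference of the 49 genes was -0.18 for HSC-3, 0.45 for KON, and 0.04 for Ca9-22, while the medians of all genes were 0.0019, 0.012, and -0.011. In HSC-3, 17 of the 49 (34.7%) were higher after siDLEU1-2, compared with 50.1% of all genes. In KON, 40 (81.6%) were higher, compared with 50.9% of all genes, and in Ca9-22, 27 (55.1%), compared with 49.1%. The share of members higher lay above that of all genes in KON, below it in HSC-3, and nearer to it in Ca9-22.

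Larger differences showed the same order of lines. In HSC-3, 0 of the 49 genes were over 2-fold higher, compared with 7.92% of all genes, and in Ca9-22, CDC6 was the only one (2.04%; 6.60% of all genes). In KON, 11 genes (22.4%) were over 2-fold higher, compared with 7.61% of all genes. These were E2F2 (2.16), E2F8 (1.85), CDC6 (1.73), CDT1 (1.47), ORC6 (1.44), MCM6 (1.38), MCM3 (1.23), TYMS (1.17), E2F3 (1.11), RFC4 (1.04), and GINS1 (1.03), as log2 differences. They include CDC6, CDT1, and ORC6 among the loaders of the MCM ring, 2 subunits of the ring, and 3 of the 5 E2F genes.

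**Figure D3:**
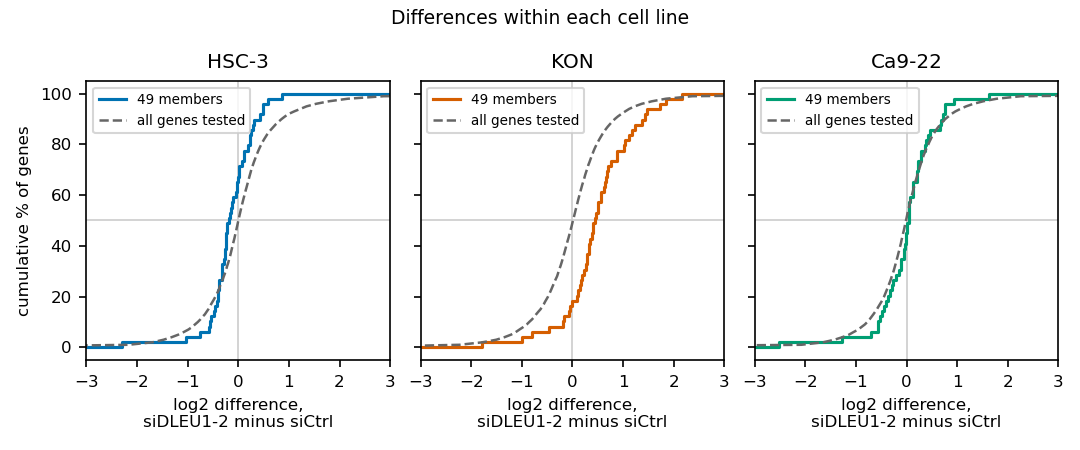
Cumulative share of genes (y axis, percent) by log2 difference between siDLEU1-2 and siCtrl (x axis) in each cell line, for the 49 genes (solid) and all 14671 genes with a kept probe (dashed). In KON the solid curve lies to the right of the dashed one except at its top end, with medians of 0.45 and 0.012. There, the highest member (2.16) lies below the 99th percentile of all genes (2.37).

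The difference was highest in KON for 46 of the 49 genes (93.9%), compared with 35.5% of all genes. The exceptions were ORC2, RFC1, and RPA2. For some genes this depends on the probe. The other ORC2 probe (-0.47, -0.18, and -0.98) was highest in KON. In contrast, the other E2F3 probe (0.93, 0.90, and 0.17) was highest in HSC-3. The other RPA1 probe (-0.403, -0.402, and 2.25, the last against a dim siCtrl spot) was not highest in KON and was lower there. The difference was greater in KON than in HSC-3 for 47 members (95.9%), compared with 49.7% of all genes. In all, 23 members (46.9%) were lower in HSC-3 and higher in KON, compared with 16.7% of all genes, and 0 were the reverse, compared with 16.0%. By chosen probe, 13 genes (26.5%) were higher in all 3 lines, close to the 27.0% of all genes, and 9 (18.4%) were lower in all 3 lines, compared with 27.3%. The 13 were MCM3, MCM5, MCM6, GINS1, CDC6, CDT1, ORC3, RFC2, RFC4, TK1, RPA3, E2F2, and E2F3. The 9 were MCM7, GINS4, ORC2, RFC1, RFC5, POLA2, POLE2, E2F1, and E2F7.

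The starting levels differed between the lines as well. After siCtrl, 38 of the 49 genes (77.6%) were lowest in HSC-3, compared with 30.0% of all genes. The KON siDLEU1-2 array held the highest level of the 6 arrays for 35 of the 49 (71.4%), compared with 19.5% of all genes. The difference in KON rests on 1 pair of arrays. On this pair, the 75th percentile of the signal was 257 and 244, and 45.7% and 44.3% of probes were well above background. These values were 218 and 200, and 43.4% and 43.5%, in HSC-3. In Ca9-22 they were 252 and 243, and 43.9% and 43.0%. The part of these values in the result was not tested. Genes of 1 line share their pair of arrays and are not independent, so no test was made of the lines. For the 4 members with 10 spots per array (E2F1, GINS2, ORC6, and PRIM1), replicate spots on the same array had SDs of 0.030 to 0.095, an error that leaves out the spread between arrays.

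KON stood highest within each role. The median difference was highest in KON in each of the 11 role groups, from 0.16 for the polymerases and primase to 1.11 for the E2F genes. In HSC-3, it was below 0 in 9 of the 11, with the MCM helicase (0.07) and the fork protection genes (0.04) above 0. Genes with an E2F match in the promoter and those without had nearby medians in KON. Of the 26 members with a match, 22 were higher in KON with a median of 0.49, and of the 16 without, 12 were higher with a median of 0.43. In HSC-3 their medians lay further apart, at -0.08 with a match (12 higher) and -0.29 without (3 higher), while in Ca9-22 the order turned, at -0.0050 with a match (13 higher) and 0.13 without (9 higher). Among the other genes with a promoter window, the 551 with a match had a median of 0.06 in KON and -0.03 in HSC-3, and the 8179 without had -0.01 and 0.0071. This division was made after the data were seen and is given without a test.

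**Figure D4:**
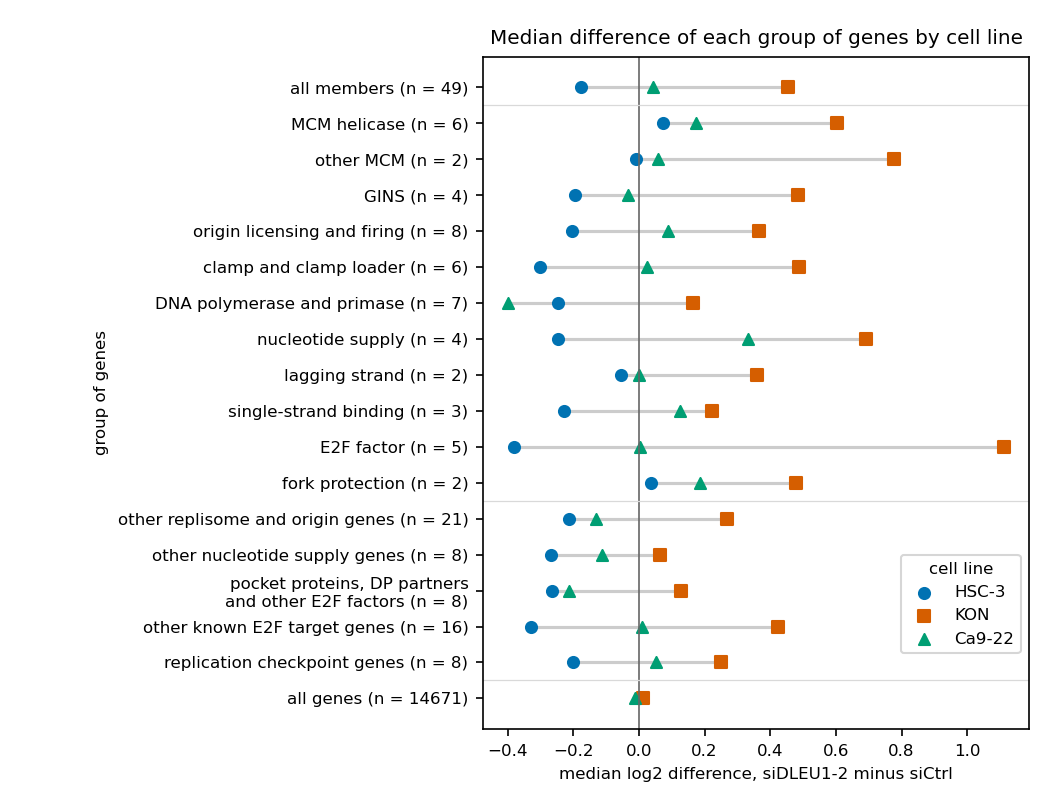
Median log2 difference between siDLEU1-2 and siCtrl (x axis) for all 49 members, their 11 role groups, 5 lists of related genes, and all genes (y axis, with the number of genes), with 1 point per cell line. The KON point is the rightmost in every group of members and in all 5 related lists. These are medians, and single genes such as E2F5 and RBL2 were lowest in KON.

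Other genes of the same pathways were taken from 5 lists. Of 64 genes, 61 had a kept probe. limma called 0 of these higher and 6 lower, beside 4.11% and 4.68% of all genes, and 2 were over 2-fold lower in all 3 lines, beside 2.25%. Both are the small accessory subunits of polymerase epsilon. POLE3 went from 4.03 to 2.79 in HSC-3, from 5.36 to 4.13 in KON, and from 4.49 to 3.21 in Ca9-22, and fell by a mean of 1.25 on the log2 scale (SD 0.023, n = 3 lines; adjusted p = 0.0247, limma). POLE4 went from 4.80 to 3.40 in HSC-3, from 4.32 to 2.86 in KON, and from 3.84 to 2.65 in Ca9-22, and fell by a mean of 1.35 on the log2 scale (SD 0.15, n = 3 lines; adjusted p = 0.0247, limma). The POLE and POLE2 genes of the same enzyme had mean differences of 0.23 and -0.28.

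CDC45, which joins GINS and the MCM ring in the active helicase, went from 3.94 to 2.66 in HSC-3, from 4.40 to 3.53 in KON, and from 4.07 to 3.05 in Ca9-22. It fell with a mean difference of -1.06 ± 0.21 (SD, n = 3 lines; adjusted p = 0.0315, limma). MCM7 and CDC45 thus fell beside GINS and other MCM genes that were not called. The others called lower were CAD, which starts pyrimidine synthesis (-0.90 ± 0.04; adjusted p = 0.0322, limma), RBL2, a pocket protein that binds repressive E2F factors (-1.05 ± 0.38; adjusted p = 0.0469, limma), and ATRIP, the partner of the checkpoint kinase ATR (-0.87 ± 0.04; adjusted p = 0.0338, limma). The other ATRIP probe was not called (adjusted p = 0.144, limma).

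By list, 3 of 21 other replisome and origin genes (14.3%), 1 of 8 other nucleotide genes (12.5%), 1 of 8 pocket proteins, E2F partners, and other E2F factors (12.5%), 0 of 16 other E2F target genes, and 1 of 8 checkpoint genes (12.5%) were called lower, beside the 4.68% of all genes. The 16 other E2F targets had medians of -0.33 (HSC-3), 0.42 (KON), and 0.01 (Ca9-22), and 14 of them (87.5%) were higher in KON, compared with 50.9% of all genes. Single genes of the 5 lists differed in their order of lines. Of the other E2F targets, MYBL2 was highest in HSC-3 (1.56, 1.26, and 0.41; adjusted p = 0.0740, limma). In the list with the pocket proteins, E2F5 was also highest in HSC-3 (1.74, 0.47, and 1.13; adjusted p = 0.0760, limma). RBL2 fell most in KON (-0.86, -1.49, and -0.81). EZH2 was highest in KON and lowest in Ca9-22 (-0.46, 0.43, and -0.64 in HSC-3, KON, and Ca9-22).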

How the data were processed

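RNA from the 6 samples (100 ng of total RNA each) was labeled for 1-color Agilent human arrays. The authors deposited the scanner output of Agilent Feature Extraction 10.7, in which each spot has an intensity on a linear scale after background subtraction and detrending, with no normalization between arrays. The deposited series table gives these intensities after rounding (they differ by at most 0.497%) and served as an alternative. The normalization used in the paper is not given in the sources used here.

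Control spots and outlier spots were left out, log2 values were averaged over the spots of a probe, and the 75th percentile of each array was subtracted. Of 50599 probes, 19956 were kept that were well above background (at least 50% of spots) on at least 1 array of every line. 0 spots were saturated. limma 3.58.1 in R 4.3.3 was fitted to all kept probes, with siRNA and cell line as terms and Benjamini-Hochberg adjustment, at a threshold of 0.05. Arrays of the same line are paired by the line, and their deviations correlated at 0.83, 0.81, and 0.82 in HSC-3, KON, and Ca9-22. The lines are separate cultures, and the only replication behind each p-value is the spread between 3 lines. limma draws the variance of each probe toward a value shared by all kept probes. The SDs given for single genes are therefore not the errors behind these p-values. The fit was tested on simulated data with the same change in every line, which does not cover changes limited to 1 line. Background shares use 1 probe per gene, the kept probe with the highest mean level.

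The members and lists were chosen with earlier results of these data known. Every member is reported. Values on each array are given for genes called by limma or over 2-fold in all lines, those whose probes differ in direction or call, MCM2 to MCM7, PCNA, and E2F1. Array values for CDC6, E2F2, and E2F8, and those of other pathway genes, were added after their values were seen. Pathway genes are named where called, and MYBL2, E2F5, and EZH2, which were not called, were named after their values were seen. Promoter sequences are from RefSeq (GRCh38.p14), and probe coordinates are those of the files (hg19). The part of the transcript under each probe was not analysed here. The number of arrays limits the precision.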

Additional observations from a re-analysis of the deposited data

Results flagged for a closer look

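The median difference of the 49 genes stood 0.630 higher in KON than in HSC-3 on the log2 scale, at 0.45 and -0.18, so the medians had opposite signs in these lines. The difference was greater in KON for 47 of the 49 genes (95.9%; 49.7% of all genes). Of the 49, 23 were lower in HSC-3 and higher in KON (46.9%; 16.7% of all genes) and 0 were the reverse (16.0% of all genes), while the rest had the same sign in both lines. Over the 11 settings that hold both lines, the distance between the medians ran from 0.54 to 0.67. It drew attention because the median of the same contrast had different signs in different cell lines. This difference was not tested: a line has a single array for each siRNA, and the 49 genes share it.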

How the results depend on the processing

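The median difference of the 49 genes was 0.17 and ran from -0.05 (without KON) to 0.28 (without HSC-3). The order of the lines held under every alternative that keeps all 3, with 14 to 17 members higher in HSC-3, 38 to 41 in KON, and 21 to 28 in Ca9-22. The median in Ca9-22 turned to -0.03 with median centring. Calls by limma depended on the settings. 2 members were called lower and 1 higher. With no replicate block, with the methods' t-test after adjustment, or with no filter on dim probes, 0 were called in either direction (2, 1, and 10 members, or 4.08%, 2.04%, and 20.4%, had an unadjusted p under 0.05, beside 7%, 6.93%, and 14.3% of all genes), and leaving out any line also gave 0 in both directions. With no replicate block, the adjusted p of E2F7 was 0.522, and without a line it was 0.05001 to 0.103. The count called higher was 2 (4.08%) with normexp correction, with only probes well above background on all 6 arrays, or with dim values raised to the detection limit, beside 5.9%, 5.54%, and 4.77% of all genes. It was 3 (6.12%) with an intensity trend in eBayes (6.45% of all genes) and 0 with the probes of a gene averaged (3.86%). Over 2-fold lower in all lines was 1 with normexp correction or the authors' series table. Over 1.5-fold higher in all lines were 2. With a line left out, 0 to 1 members were over 2-fold higher in both remaining lines, and 9 to 18 were lower by any amount in both (18 without KON).

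Of 735 values (49 members under 15 settings), 686 kept their direction and side of the threshold, 19 lost and 5 gained a call, and 25, all of uncalled genes, changed sign. With quantile normalization, ORC1 became 0.0070, RPA1 -0.014, and RPA2 -0.0021. With median centring, RFC3 became -0.061, LIG1 -0.053, and RPA2 -0.025. With the 75th percentile of probes detected on all arrays, RFC3 became -0.015 and LIG1 -0.0065, and with normexp correction, ORC1 0.049 and LIG1 -0.0075. With each line left out, the mean difference ran from -0.070 to 0.50 for MCM10, -0.081 to 0.33 for GINS2, -0.30 to 0.13 for GINS3, -0.21 to 0.18 for ORC1, -0.12 to 0.37 for PCNA, -0.15 to 0.17 for RFC3, -0.40 to 0.11 for POLD3, -0.12 to 0.49 for PRIM1, -0.26 to 0.10 for RRM1, -0.10 to 0.13 for LIG1, -0.051 to 0.22 for RPA1, -0.032 to 0.19 for RPA2, and -0.22 to 0.95 for E2F8. The cause of these shifts was not tested. Dim probes limit the second E2F7, POLE, and RPA1 probes, and low siCtrl levels limit CDC6.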
